A study of Mus musculus with 12 samples.

Results

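The ascending aorta, the stretch of the great artery that leaves the heart, was compared with the descending aorta, its continuation along the spine. The comparison used the 3 arrays labelled ascending aorta and the 3 labelled descending aorta, 6 of the 12 arrays of the study; the other 6 were from coronary and superior mesenteric artery. Total RNA came from whole tissue of untreated, wild-type C57BL/6 mice aged 8 weeks, and ascending and descending samples shared strain, genotype, age and the absence of treatment. The study's stated interest was in expression that follows the embryonic origin of a vessel. Replicates are labelled as biological, with no number of animals behind each, so a p-value here reflects how these particular samples vary. Genes were 19938 symbols, each read from the probe set with the highest mean among those annotated to that symbol alone. Values are log2 array values, and all differences below are ascending minus descending, in log2 units ± SE.

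The smooth muscle of the ascending aorta is known to derive from the cardiac neural crest and the second heart field, and that of the descending aorta largely from somitic and other trunk mesoderm. Hox genes lie in 4 clusters and encode homeodomain transcription factors whose order along a cluster matches the order of their domains along the body axis, so that a trunk vessel and one near the heart carry different sets. The wall itself is built of contractile smooth muscle between elastic sheets of elastin on a scaffold of fibrillins, fibulins and latent TGF-beta binding proteins, with fat around it, which in the thorax of a mouse includes brown fat.

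The median over genes was from 4.04 to 4.14 in the 6 aortic arrays, and 3 arrays a group limit the precision; whether low values lie above background is not known. Ascending aorta replicate 1 stood apart, with a mean correlation across genes of 0.895 with the other ascending arrays, against 0.967 and 0.972 between ascending replicates 2 and 3 and the descending arrays. Glycam1, a mucin of lymph node venules, was at 11.16 in replicate 1 and at 2.91 and 2.30 in replicates 2 and 3. The means of 20 B and plasma cell genes were 7.85, 4.25 and 4.27 in ascending replicates 1, 2 and 3, and 4.68, 3.94 and 4.90 in the descending arrays. The means of 17 T cell genes were 6.54, 3.51 and 4.10 in ascending and 3.68, 3.66 and 4.04 in descending aorta. The means of 10 lymph node stroma genes were 7.03, 4.32 and 4.68 in ascending aorta. Ascending replicate 1 was thus above the other 5 arrays in these 3 lymphoid lists. The means of 15 thymocyte genes were 4.98, 3.65 and 4.67 in ascending and 3.74, 4.14 and 4.16 in descending aorta. There ascending replicate 3 was also above every descending array. Thymic epithelium genes averaged 3.85, 3.62 and 3.73 in ascending and 3.48, 3.43 and 3.61 in descending aorta. Their transcription factor Foxn1 was at 3.10, 3.46 and 3.10 in the ascending arrays. Fibroblast genes were at 6.01 in ascending replicate 1 and between 8.34 and 8.63 in the other 5 arrays. The tests across all genes and most list counts are therefore given with and without that array. Counts and medians by Hox cluster are with all arrays, and for many single genes only 1 of the 2 differences is printed. In descending aorta replicate 1 the cardiomyocyte list averaged 5.35, against values from 3.92 to 4.09 in the other 5 arrays.

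**Figure D1:**
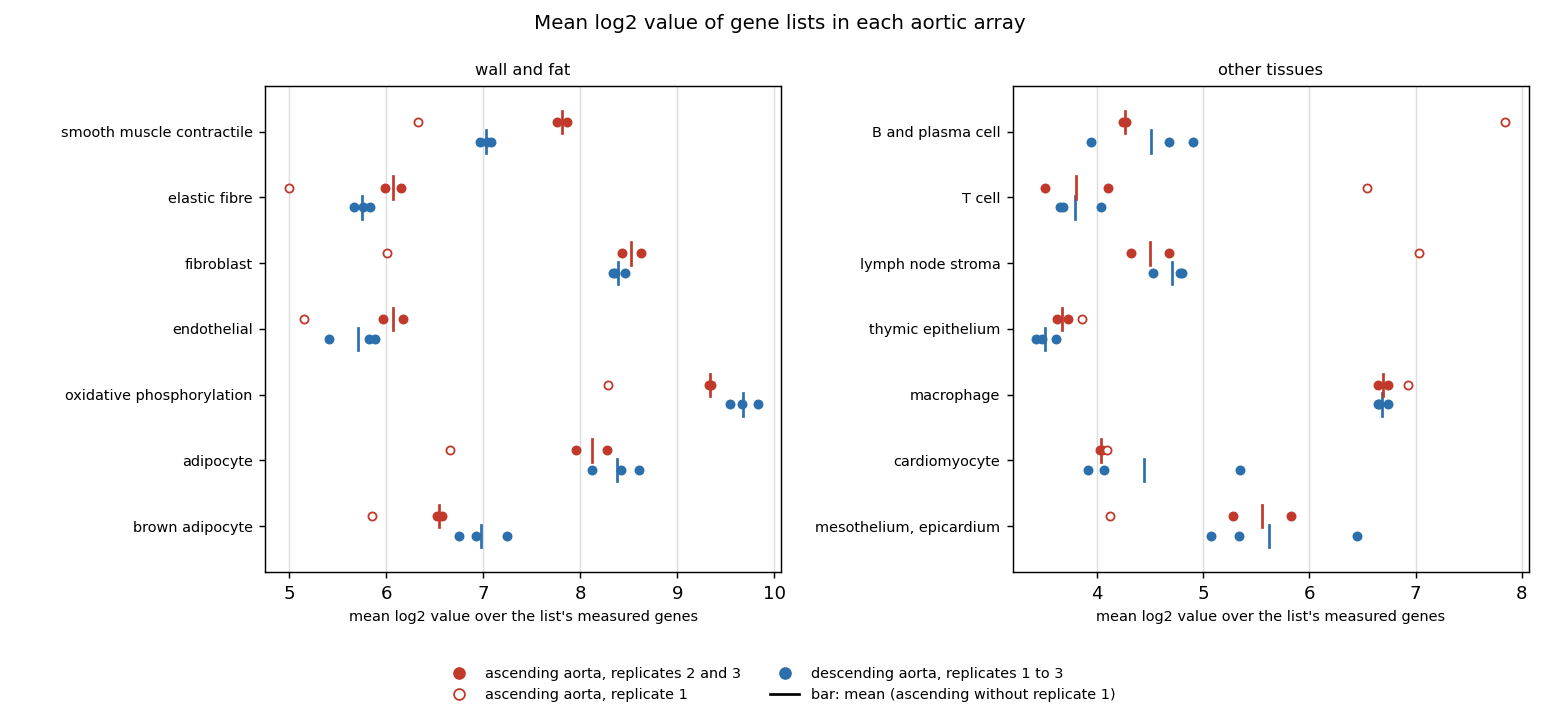
Mean log2 value (x axis) of the measured genes of 14 lists (y axis) in each of the 6 aortic arrays. The open red point, ascending aorta replicate 1, lies at 7.85 in the B and plasma cell list and at 6.01 in the fibroblast list, outside the range of the other 5 arrays in both.

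In the comparison of the segments 3 genes passed the test across all genes: Hoxc6, Hoxc8 and Fbln7, all lower in ascending aorta. Over all 19938 genes, 0.015% passed a limma adjusted p under 0.05. The counts were 3 lower and 0 higher, and 2 lower (0.01%) and 0 higher without ascending replicate 1. At an unadjusted limma p under 0.05 there were 1922 genes (9.64%), 1250 lower and 672 higher (6.27% and 3.37%). Without ascending replicate 1 there were 1360 (6.82%), 731 lower and 629 higher (3.67% and 3.15%). A gene was also described as apart where every ascending value lay on one side of every descending value. With 3 arrays against 3, 9.62% of all genes were apart and lower in ascending aorta and 6.09% apart and higher; with ascending replicates 2 and 3 against 3 descending arrays these were 14.5% and 12.3%. The median difference over all genes was -0.02 with and without ascending replicate 1.

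Hoxc6, a homeodomain factor of the thoracic body region, was at 2.42, 2.63 and 2.62 in the ascending arrays and at 4.94, 4.83 and 4.37 in the descending arrays. The lowest descending array was well above the highest ascending one. The difference was -2.16 ± 0.24, a level 4.46-fold lower in ascending aorta (limma adjusted p = 0.0121), and -2.09 ± 0.26 without ascending replicate 1 (limma adjusted p = 0.0334). Hoxc8, the next measured gene along the HoxC cluster, was at 2.75, 2.82 and 2.92 in ascending and at 5.51, 4.98 and 4.98 in descending aorta. Its difference of -2.33 ± 0.31 passed in all arrays (limma adjusted p = 0.0394) and not without ascending replicate 1 (-2.29 ± 0.34, limma adjusted p = 0.0883). The ascending values of both genes varied little, and replicate 1 lay with the other ascending arrays.

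The other HoxC genes are given in their order in the cluster. Hoxc4 and Hoxc5, at the anterior end, were apart by smaller amounts, with differences of -0.60 ± 0.20 and -0.80 ± 0.21 (limma adjusted p = 0.425 and 0.391). Hoxc5 was at 2.66, 2.68 and 2.74 in ascending and at 3.22, 3.75 and 3.52 in descending aorta. From Hoxc9 to Hoxc13, the posterior end, the groups overlapped in all 5 genes, with values between 1.96 and 3.43. Of the 9 measured HoxC genes, 4 were apart and lower, a contiguous run from Hoxc4 to Hoxc8 among the measured genes, and 0 apart and higher.

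In the HoxB cluster 6 of 9 measured genes were apart and lower in ascending aorta and 0 higher. Hoxb6 was at 4.49, 3.92 and 4.12 in ascending and at 6.22, 5.70 and 5.67 in descending aorta. Its difference was -1.68 ± 0.33 (limma adjusted p = 0.284), and -1.84 ± 0.36 without ascending replicate 1 (limma adjusted p = 0.243). Hoxb5 was at 3.41, 4.19 and 3.58 against 5.84, 5.17 and 5.28, a difference of -1.71 ± 0.44 (limma adjusted p = 0.391). Neither gene passed, and in both the gap between the groups was wider than the range within either. The neighbours Hoxb3 and Hoxb4 overlapped, with differences of -0.02 and -0.12, while Hoxb7 and Hoxb2 were apart by -0.67 ± 0.23 and -0.57 ± 0.21. Hoxb1 and Hoxb9 were the others apart, at -0.26 and -0.39, and Hoxb13 overlapped. For Hoxb9 the highest ascending value, 3.569, was only just below the lowest descending one, 3.570.

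In the HoxA cluster 5 of 10 measured genes were apart and lower: Hoxa4, Hoxa5, Hoxa7, Hoxa9 and Hoxa13. For Hoxa4 and Hoxa13 the margin was narrow. Their highest ascending values were 6.105 and 2.620 and their lowest descending values 6.132 and 2.622. Hoxa7 was at 3.95, 4.36 and 3.41 in ascending and at 5.10, 4.79 and 4.82 in descending aorta, a difference of -1.0 ± 0.23 (limma adjusted p = 0.347). Hoxa5 differed by -1.07 ± 0.39 (limma adjusted p = 0.449), and by -0.70 ± 0.37 without ascending replicate 1 (limma adjusted p = 0.776). It was at 3.37 in ascending replicate 1 and at 4.35 and 4.63 in replicates 2 and 3, all below the lowest descending value of 4.88. The HoxD cluster was unlike the other 3: 0 of its 9 measured genes were lower and apart. Hoxd12 was apart in the opposite direction, by 0.28 ± 0.16 (limma adjusted p = 0.602). The median difference was -0.38 in HoxA, -0.39 in HoxB, -0.34 in HoxC and 0.02 in HoxD, a description with no test between clusters.

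**Figure D2:**
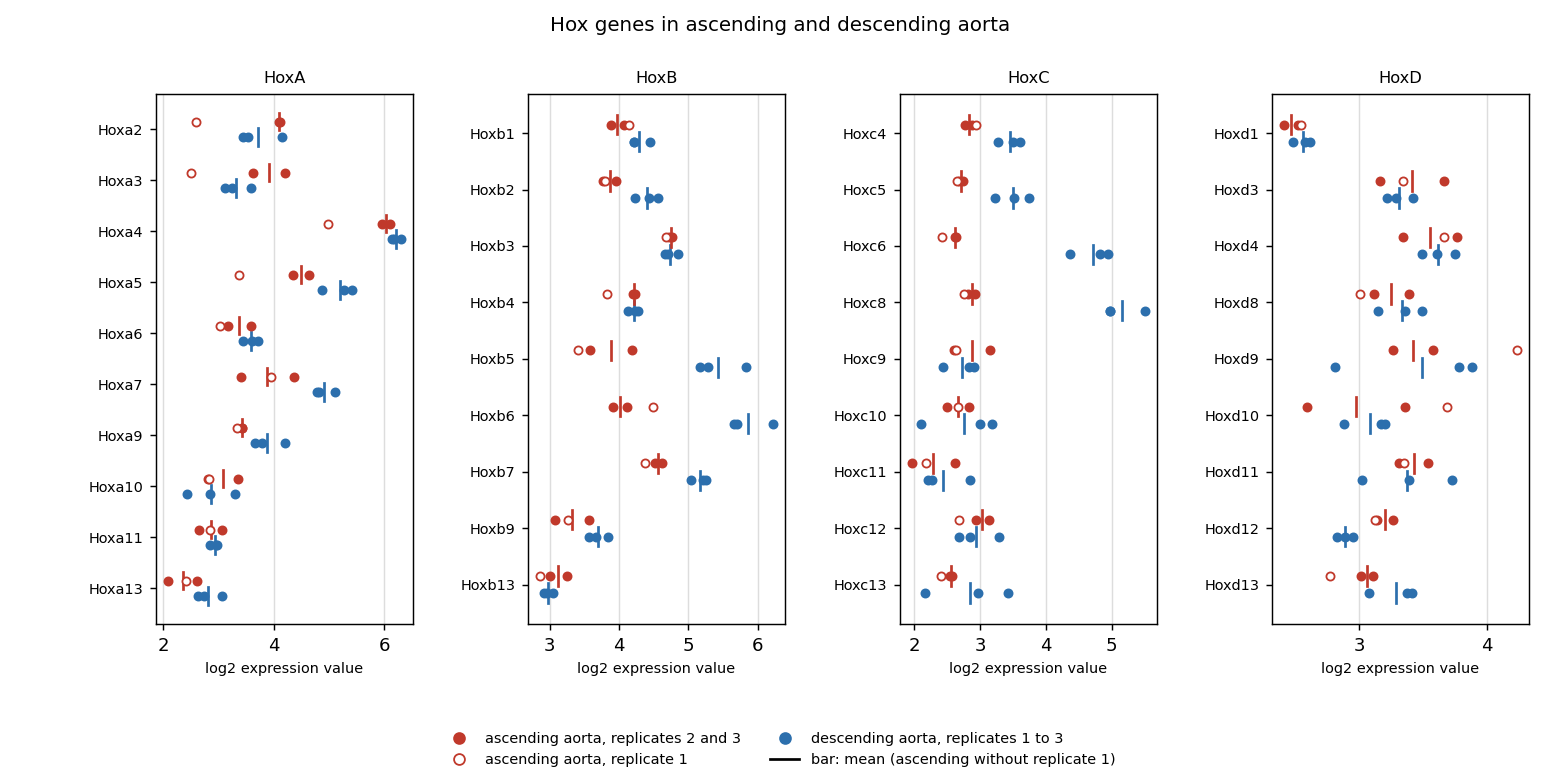
Log2 value (x axis) of the 37 measured Hox genes, by cluster and in the order of the cluster from anterior to posterior (y axis, top to bottom), in each aortic array. Hoxc6 and Hoxc8 stand clear between the segments, at most 2.92 in ascending and at least 4.37 in descending aorta, while the HoxD genes lie together.

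By paralogue group, 7 of 14 measured Hox genes of groups 1 to 5 and 8 of 23 of groups 6 to 13 were apart and lower, and 0 and 1 apart and higher, against the background of 9.62% lower and 6.09% higher. Their medians were -0.19 in both sets, against -0.02 over all genes. Among the lower genes counted, Hoxa4, Hoxa13 and Hoxb9 were apart by narrow margins. Without ascending replicate 1 the counts of lower genes were again 7 and 8, against 14.5%. The Hox lists were drawn up with earlier results of these arrays known, so their direction is no independent evidence. Of 11 measured TALE and Cdx genes, which encode partners and regulators of Hox proteins, 0 were apart and lower and 2 apart and higher with all arrays, against 9.62% and 6.09% of all genes. There were 0 lower and 6 higher without ascending replicate 1, against 14.5% and 12.3%. Meis2, a TALE partner, was at 4.89, 6.55 and 7.19 in ascending and at 6.04, 5.95 and 6.35 in descending aorta, with ascending replicate 1 lowest of the 6 arrays. Its groups overlapped with all arrays (0.10 ± 0.49) and were apart, higher in ascending aorta, without that array (0.76 ± 0.35, limma adjusted p = 0.734).

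Fbln7 encodes fibulin-7, a secreted matrix protein that binds cell surfaces. It was at 3.76, 4.63 and 3.94 in ascending and at 6.09, 6.04 and 6.20 in descending aorta. The descending arrays were close to one another and all above the ascending ones. The difference was -2.0 ± 0.23 (limma adjusted p = 0.0121), and -1.82 ± 0.23 without ascending replicate 1 (limma adjusted p = 0.0334), which is 3.54-fold lower. In coronary and superior mesenteric artery Fbln7 averaged 4.22 ± 0.28 and 4.22 ± 0.11 (SD, n = 3 arrays each), near its level in ascending aorta.

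The 250 bases before the start of Fbln7, from RefSeq on the plus strand of GRCm38.p6, chr2:128863682-128863931, are shown because Fbln7 passed beside a pair of Hox genes. Hox proteins with their partner PBX are known to bind sites of the form TGATNNAT. The capitals mark the single match to it, which lies on the opposite strand with its first base at position -205 from the start.

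Fbln7: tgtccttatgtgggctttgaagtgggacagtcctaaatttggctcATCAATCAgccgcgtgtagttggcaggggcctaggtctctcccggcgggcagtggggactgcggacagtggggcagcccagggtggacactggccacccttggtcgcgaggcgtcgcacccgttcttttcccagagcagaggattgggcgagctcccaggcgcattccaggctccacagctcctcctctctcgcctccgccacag

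On either strand, 7.68% of 32851 RefSeq promoters of the same length hold this motif. A match is a description of these letters, not evidence of binding.

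Fbln5, known for its role in elastic fibre assembly, was at 5.41, 9.27 and 9.30 in ascending and at 8.16, 8.25 and 8.63 in descending aorta. Ascending replicate 1 was far below and replicates 2 and 3 above all descending arrays, so that the difference was -0.35 ± 0.77 with replicate 1 and 0.94 ± 0.27 without it (limma adjusted p = 0.922 and 0.59). Efemp1, fibulin-3, was at 4.56, 9.02 and 9.12 against 8.54, 8.06 and 8.73, and its difference turned likewise, from -0.88 ± 0.88 to 0.62 ± 0.25. Fbln1 turned from -0.59 to 0.26, while Fbln2, Hmcn1 and Hmcn2 kept their direction without ascending replicate 1 (-0.07, -0.35 and -0.65). Hmcn1 was read from 1 of 77 probe sets, whose differences with all arrays ran from -1.55 to 0.71, so its direction depends on the probe set. Of 7 measured family members, 2 were apart and lower with all arrays, Fbln7 and Hmcn2, against 9.62% of all genes. Without ascending replicate 1 they were joined by 3 apart and higher, Fbln5, Efemp1 and Fbln1. The shares of all genes there were 14.5% lower and 12.3% higher. Hmcn2, hemicentin-2, differed by -0.61 ± 0.30 (limma adjusted p = 0.547).

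A further view took named genes with an unadjusted p under 0.05 with and without ascending replicate 1 and with groups apart in all 6 arrays. The 12 with the most negative differences included Fbln7, 4 Hox genes, the Wnt inhibitor gene Sfrp4, the cysteine protease gene Ctsk and the growth factor binding protein gene Igfbp6. Sfrp4, a secreted frizzled-related protein, was at 3.62, 7.42 and 7.48 in ascending and at 9.51, 9.37 and 9.45 in descending aorta. The groups did not overlap, and replicate 1 was by far the lowest. The difference was -3.27 ± 0.77 with all arrays and -1.99 ± 0.28, 3.97-fold, without ascending replicate 1 (limma adjusted p = 0.347 and 0.0665). Ctsk, cathepsin K, a collagenase and elastase, was at 3.13, 4.90 and 4.87 against 5.82, 6.17 and 5.92, or -1.09 ± 0.24 without ascending replicate 1 (limma adjusted p = 0.349). Igfbp6 was at 5.17, 6.99 and 7.75 against 8.28, 8.20 and 9.21. The remaining 4 were Pon1, Acsm3, Inmt and Pdgfrl, with differences from -2.05 to -1.67 in all arrays. Ascending replicate 1 was the lowest array in 11 of the 12 genes. Of 456 genes of this kind that were lower, the 3 given above passed limma's adjusted threshold.

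**Figure D3:**
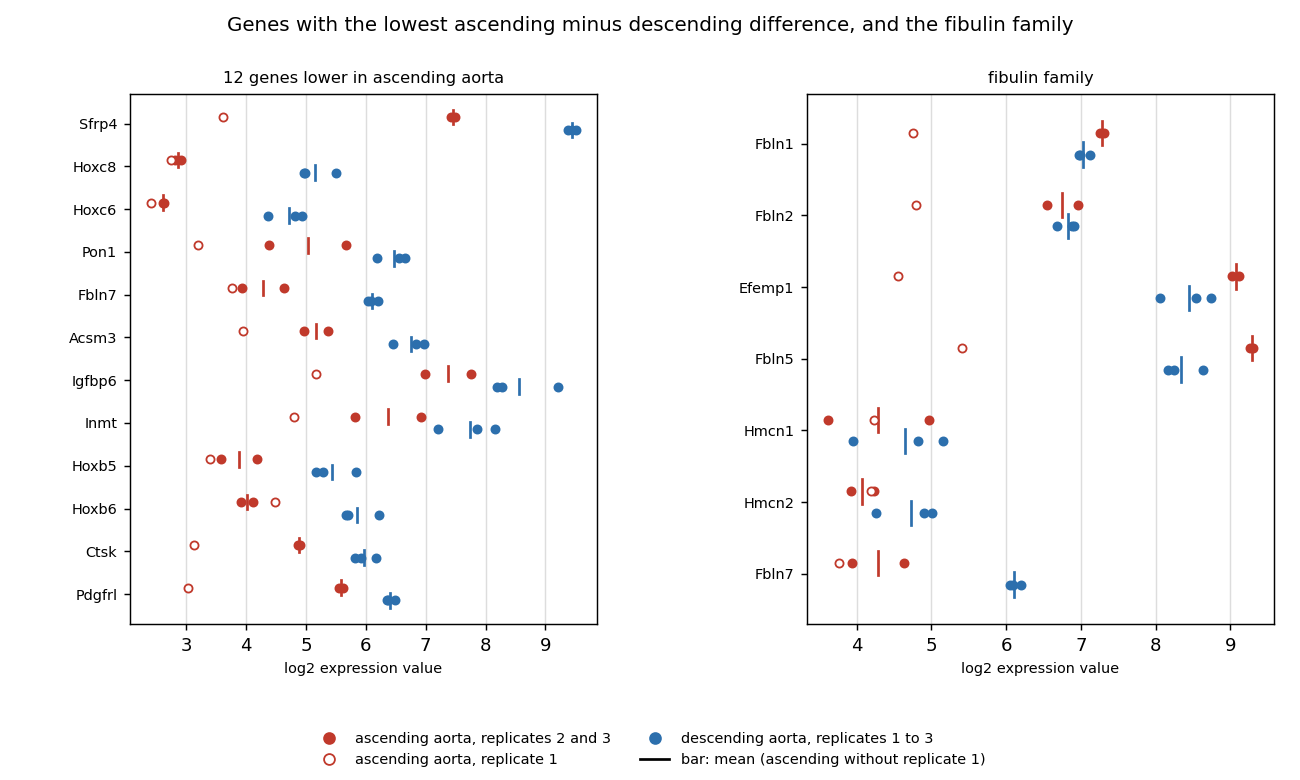
Log2 values (x axis) of the 12 genes with the most negative differences (left) and of the 7 measured fibulin genes (right) in each aortic array. Sfrp4 lies at 9.37 to 9.51 in descending aorta, while Fbln5 and Efemp1 are higher in ascending replicates 2 and 3 than in any descending array, and Fbln7 is lower.

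In the other direction there were 237 such genes. The 12 largest among named genes were Klrd1, Siglec1, Ifnab, Slc38a1, Lrrc8c, Ugcg, Gbp8, Hhex, Parp8, Glipr1, Fgf10 and Pate11, with differences from 1.20 to 1.96 and limma adjusted p of 0.284 or more. Ascending replicate 1, the array highest in the lymphoid lists, was the highest array in 9 of them. Klrd1, a receptor of natural killer cells, was at 6.86, 3.31 and 3.69 against 3.04, 2.54 and 2.41. Siglec1, a macrophage lectin, was at 7.61, 5.39 and 4.86 against 4.60, 4.53 and 4.24. Without ascending replicate 1 the differences were 0.83 ± 0.37 and 0.67 ± 0.23, and the part of lymphoid cells in them was not tested.

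Fgf10 went against that order. This growth factor, a known marker of second heart field progenitors, was at 3.77, 4.98 and 5.11 in ascending and at 3.54, 3.76 and 2.95 in descending aorta. Replicate 1 was the lowest ascending array and barely above the highest descending one. The difference was 1.20 ± 0.38 with all arrays and 1.62 ± 0.33 without ascending replicate 1 (limma adjusted p = 0.425 and 0.243). Isl1, a homeodomain factor of the second heart field, was at 3.16, 5.51 and 5.53 in ascending and at 4.76, 4.28 and 4.75 in descending aorta. It was higher in replicates 2 and 3 and lower in replicate 1, with a difference of 0.92 ± 0.29 without that array (limma adjusted p = 0.606). The lists of developmental factors are read against the shares of all genes apart, 6.09% higher and 9.62% lower with all arrays and 12.3% and 14.5% without ascending replicate 1. Of 24 measured second heart field genes 3 were apart and higher and 0 lower with all arrays, and 7 and 1 without ascending replicate 1; their median was 0.09 in the latter. Of 32 measured neural crest factors, 3 were apart and higher and 1 lower, and 8 and 1 without ascending replicate 1. Prrx1, a mesenchymal homeobox gene on that list, was lower, at 5.12, 7.19 and 6.90 against 7.80, 7.42 and 7.55. Of 27 somite and mesoderm factors 2 were apart and higher and 1 lower with all arrays, near or under those shares, and 6 and 3 without ascending replicate 1. The lower one with all arrays was Pax1, a factor of the ventral somite, at 4.58, 4.67 and 4.64 against 5.33, 5.01 and 5.42 (-0.62 ± 0.17, limma adjusted p = 0.407).

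Contractile smooth muscle genes were higher in ascending replicates 2 and 3 than in the descending aorta, and lower in ascending replicate 1. The mean of 28 measured genes was 6.32, 7.76 and 7.86 in ascending and 6.97, 7.08 and 7.03 in descending aorta. With all arrays 2 genes were apart and higher, Ppp1r12a and Cnn2, and 0 lower, near the background of 6.09%, and the median difference was 0.26. Without ascending replicate 1, 23 of 28 were apart and higher, against 12.3% of all genes, with a median of 0.85 against -0.02, and Des was apart and lower. In bulk tissue, fewer cells of a type and less RNA per cell cannot be told apart.

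Myh11, the smooth muscle myosin heavy chain, was at 7.70, 9.50 and 9.86 in ascending and at 7.71, 8.43 and 7.83 in descending aorta. Acta2, smooth muscle actin, was at 9.52, 11.17 and 11.23 against 10.09, 10.41 and 10.24. In both genes replicates 2 and 3 were above every descending array and replicate 1 below every one. The integrin gene Itga8 was at 6.55, 8.86 and 8.97 against 6.90, 7.41 and 7.33. Its difference without ascending replicate 1 was 1.70 ± 0.75, against 1.69 ± 0.83 for Myh11 and 0.95 ± 0.60 for Acta2 (limma adjusted p = 0.713, 0.757 and 0.828). With all arrays the direction of Cnn1, Hspb6, Myl9 and Tagln turned when ascending replicate 3 was left out (-0.16, -0.08, -0.49 and -0.07). Leaving out ascending replicate 2 also turned Myl9 and Tagln, the latter to -0.09. None of the 28 genes passed limma's adjusted threshold in either fit of all vessels. At an unadjusted limma p under 0.05, 1 was higher with all arrays and 4 without ascending replicate 1. The shares of all genes higher there were 3.37% and 3.15%. The fits of all vessels also take in the spread of the other arteries. In superior mesenteric artery the list's mean was 9.16, 6.57 and 7.01.

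Fitted on the aortic arrays alone, without ascending replicate 1, 41 of all 19938 genes passed, 11 lower and 30 higher in ascending aorta. With all 6 aortic arrays 0 genes passed, against 1474 at an unadjusted limma p under 0.05. The fit on 5 arrays leaves 3 residual degrees of freedom and 2 ascending arrays. There the SE of Myh11 was 0.25, and its difference of 1.69 passed (limma adjusted p = 0.0443). Myh11 was joined by 6 others of the 28 contractile genes: Itga8, the leiomodin gene Lmod1, smoothelin (Smtn), the heat shock protein gene Hspb6, Synpo2 and transgelin (Tagln). Tagln was at 6.82, 9.50 and 9.46 in ascending and at 8.07, 8.29 and 8.34 in descending aorta. Outside the list, but also of the actin cytoskeleton, were filamin (Flna), alpha-actinin (Actn1), Enah, Fblim1 and dystrophin (Dmd), named after their values were seen because they passed here. Flna was at 7.48, 8.70 and 8.74 against 7.37, 7.57 and 7.16.

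The 11 lower genes of that fit were Hoxc8, Hoxc6, Hoxb6, Sfrp4, Fbln7, Acsm3, Cmbl, Ociad2, Ffar4, Chac2 and Coasy. Ffar4, a receptor for long-chain fatty acids expressed by fat cells, was at 3.26, 2.84 and 3.10 in ascending and at 4.26, 4.16 and 4.40 in descending aorta. Coasy, which makes coenzyme A, was at 4.43, 4.27 and 4.29 against 5.44, 5.55 and 5.56. Both genes are named because they passed here, after their values were seen, and ascending replicate 1 lay with the other ascending arrays. Pank1, the kinase that opens coenzyme A synthesis, did not pass in that fit or in those of all vessels, at 4.93, 5.39 and 5.13 against 5.91, 6.79 and 6.68 (-1.31 ± 0.23, limma adjusted p = 0.189).

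**Figure D4:**
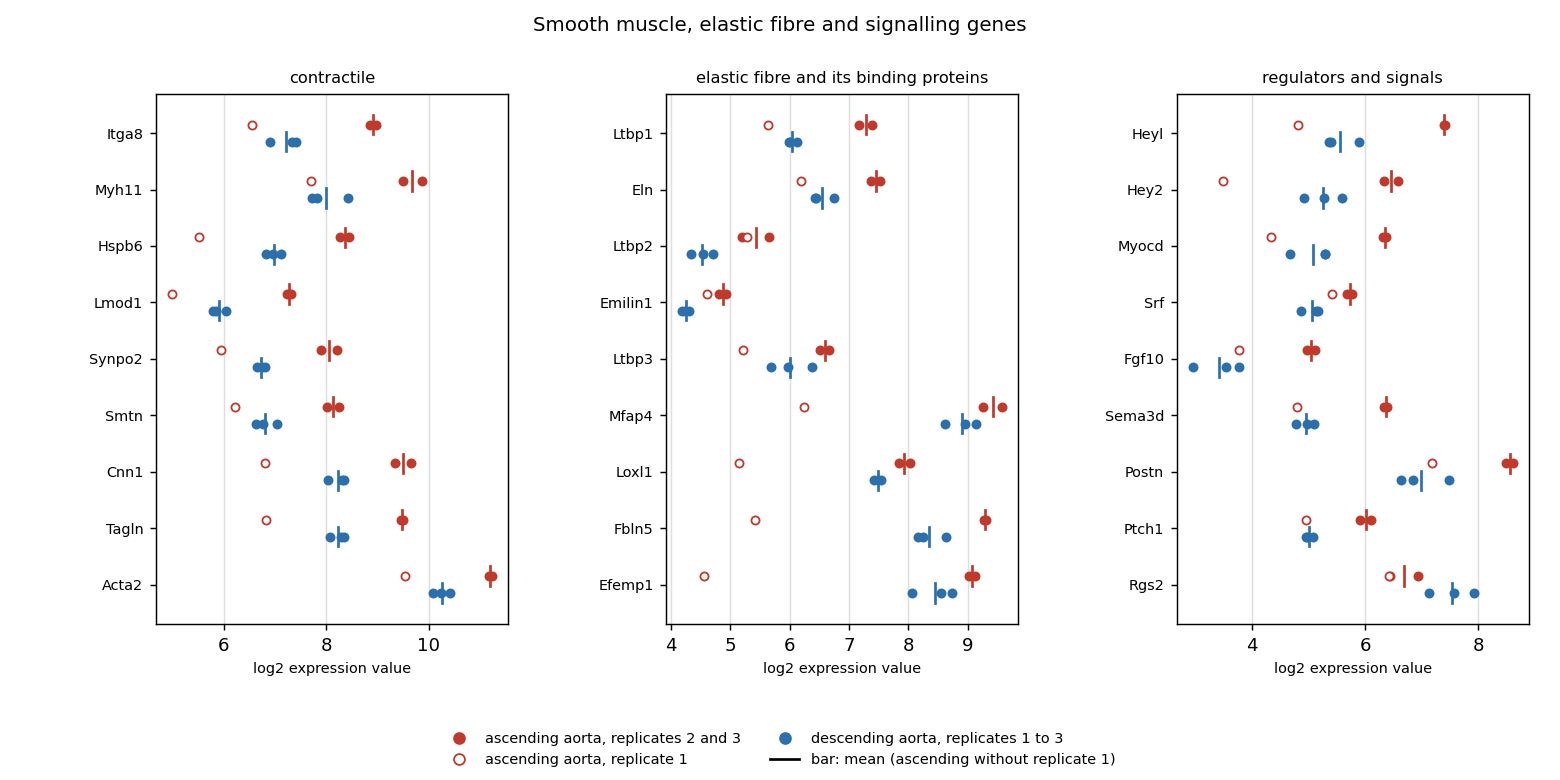
Log2 values (x axis) of contractile genes, elastic fibre genes, and regulators and signals (y axis) in each aortic array. For the 9 contractile genes plotted replicates 2 and 3 of ascending aorta (filled red) lie right of every descending array, and replicate 1 (open red) lies below them, at 6.82 for Tagln.

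Serum response factor is known to drive contractile genes from sites called CArG boxes. The promoter of Myl9, the regulatory myosin light chain, is shown because it belongs to the genes that were apart together and holds such a match in capitals, with its first base at -161. Myl9 was at 8.45, 11.20 and 11.44 in ascending and at 10.22, 10.35 and 10.39 in descending aorta. The sequence is RefSeq's 250 bases before the start on the plus strand, GRCm38.p6, chr2:156775214-156775463.

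Myl9: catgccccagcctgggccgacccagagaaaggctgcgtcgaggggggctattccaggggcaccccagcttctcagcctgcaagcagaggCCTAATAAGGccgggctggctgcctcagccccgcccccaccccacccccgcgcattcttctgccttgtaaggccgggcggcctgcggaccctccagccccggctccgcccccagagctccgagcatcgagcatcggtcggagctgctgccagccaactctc

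Of the 28 contractile genes 24 had a RefSeq promoter, and 3 of these (12.5%) held a match on either strand within the 250 bases. Among all promoters, each counted singly, 1.47% held a match. The share of 12.5% counts genes, and a gene with several promoters has more chances to match. The shares are therefore not directly comparable. The motif is its own reverse complement in form, and the absence of a match says only that the letters are not in this window.

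Transcription factors of the contractile state were described beside them. Of 22 measured regulators 12 were apart and higher and 1 lower without ascending replicate 1, against 12.3% and 14.5% of all genes. With all arrays 4 were higher and 1 lower, against 6.09% and 9.62%. Srf, serum response factor itself, was at 5.42, 5.69 and 5.77 in ascending and at 5.12, 5.17 and 4.87 in descending aorta. It was higher in all 3 ascending arrays, replicate 1 included, by 0.57 ± 0.24 (limma adjusted p = 0.494). Its coactivator gene Myocd was at 4.33, 6.36 and 6.32 against 4.67, 5.28 and 5.29. The regulator that was lower in both sets of arrays was Rgs2, a brake on G protein signals, at 6.43, 6.44 and 6.94 against 7.12, 7.93 and 7.57 (-0.94 ± 0.25, limma adjusted p = 0.391).

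Heyl, a Notch target of vascular smooth muscle, was at 4.82, 7.39 and 7.40 in ascending and at 5.39, 5.37 and 5.90 in descending aorta. Replicates 2 and 3 were far above the descending arrays and replicate 1 below them. The difference was 1.85 ± 0.33, 3.59-fold, without ascending replicate 1 (limma adjusted p = 0.193), and it passed in the fit of the 5 aortic arrays (limma adjusted p = 0.031). Hey2, a related target, was at 3.49, 6.58 and 6.32 against 5.27, 4.92 and 5.60. Of 26 measured Notch genes 4 were apart and higher and 1 lower with all arrays (6.09% and 9.62% of all genes), and 10 and 2 without ascending replicate 1 (12.3% and 14.5%). The receptor gene Notch2 was apart in all arrays, at 6.17, 5.55 and 5.53 against 5.34, 5.04 and 4.58.

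Several genes of the elastic fibre were also higher in ascending replicates 2 and 3. Of 20 measured genes 9 were apart and higher and 2 lower without ascending replicate 1, against 12.3% and 14.5% of all genes. With all arrays 2 were higher, Ltbp2 and Emilin1, and 0 lower, against 6.09% and 9.62%. Eln, which encodes elastin, was at 6.19, 7.38 and 7.51 in ascending and at 6.74, 6.44 and 6.43 in descending aorta. Its difference was 0.49 ± 0.34 with all arrays and 0.91 ± 0.27 without ascending replicate 1 (limma adjusted p = 0.665 and 0.59). Ltbp1, which tethers latent TGF-beta to the fibre, was at 5.64, 7.39 and 7.17 against 6.00, 6.13 and 5.98, and passed in the fit of the 5 aortic arrays (1.24 ± 0.19, limma adjusted p = 0.0443). Ltbp2, a related protein that does not bind TGF-beta, was higher in every ascending array, at 5.28, 5.65 and 5.19 against 4.71, 4.54 and 4.33 (0.85 ± 0.24, limma adjusted p = 0.407). Emilin1, an elastin-associated glycoprotein, was at 4.60, 4.82 and 4.93 against 4.19, 4.23 and 4.31.

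In the TGF-beta and BMP pathway, 23 of 50 measured genes were apart and higher and 1 lower without ascending replicate 1, against 12.3% and 14.5% of all genes. With all arrays 6 were higher and 1 lower, against 6.09% and 9.62%. The medians were 0.26 without that array and 0.10 with all arrays. The receptor gene Tgfbr1 was at 6.48, 6.05 and 5.93 in ascending and at 5.45, 5.38 and 5.03 in descending aorta, higher in every ascending array (0.87 ± 0.27, limma adjusted p = 0.413). Among ligands, Tgfb1 was apart at 6.37, 5.43 and 5.75 against 5.31, 5.20 and 5.26, while Tgfb3 overlapped. Ascending replicate 1 was the highest array for Tgfb1 and the lowest for Tgfb3, at 3.65 against 6.90 to 7.30 in the other 5. Ccn2 and Ccn3, matricellular genes named because they passed in the fit of the 5 aortic arrays, were higher there by 1.26 ± 0.19 and 1.67 ± 0.19 (limma adjusted p = 0.0443 and 0.0299). The TGF-beta induced matrix gene Tgfbi went the other way, at 7.20, 7.97 and 7.53 against 8.43, 8.43 and 8.54 (-0.90 ± 0.23, limma adjusted p = 0.391).

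Of 33 measured genes known from inherited thoracic aortic disease, 15 were apart and higher and 1 lower without ascending replicate 1. The shares of all genes there were 12.3% and 14.5%. With all arrays 3 were higher and 1 lower, near or under the shares of 6.09% and 9.62%. Myh11, Flna, Acta2 and Tgfbr1 are among them and were given above. Thsd4, a fibrillin-binding protein gene, was at 3.76, 4.89 and 4.85 in ascending and at 3.88, 4.2 and 3.93 in descending aorta. Bgn, the proteoglycan biglycan, was at 8.68, 10.89 and 10.99 against 10.24, 10.02 and 10.21. In both, replicate 1 was the lowest of the 6 arrays. Postn, periostin, was at 7.18, 8.61 and 8.50 against 6.85, 7.49 and 6.64 (1.56 ± 0.66 without ascending replicate 1, limma adjusted p = 0.708).

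Axon guidance and hedgehog genes had members apart too. Sema3d, a secreted semaphorin that guides neural crest cells, was at 4.80, 6.39 and 6.34 in ascending and at 5.10, 4.97 and 4.78 in descending aorta. It was higher in replicates 2 and 3 by 1.42 ± 0.29 (limma adjusted p = 0.257), and passed in the fit of the 5 aortic arrays (limma adjusted p = 0.0443). Of 33 measured guidance genes 2 were apart and higher and 0 lower with all arrays (6.09% and 9.62% of all genes), and 13 and 2 without ascending replicate 1 (12.3% and 14.5%). The hedgehog receptor gene Ptch1 was at 4.95, 6.10 and 5.92 against 4.96, 5.07 and 4.98. The hedgehog inhibitor gene Hhip was lower in every ascending array, at 2.77, 3.64 and 3.69 against 4.83, 4.57 and 4.04 (-1.11 ± 0.29, limma adjusted p = 0.391). Fgf7, a growth factor of mesenchyme, was lower too, at 3.63, 5.06 and 4.35 against 5.86, 5.29 and 5.91.

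Other cells of the wall and its collagens were read the same way. Of 25 measured endothelial genes 1 was apart and higher and 0 lower with all arrays, against 6.09% and 9.62% of all genes. Without ascending replicate 1 there were 8 and 1, against 12.3% and 14.5%. The list means were 5.15, 5.96 and 6.17 in ascending and 5.89, 5.41 and 5.82 in descending aorta. Erg, an endothelial transcription factor, was at 5.49, 6.99 and 6.96 against 6.35, 6.01 and 6.26. Of 17 fibroblast genes 0 were apart in either direction with all arrays, and 4 were higher and 0 lower without ascending replicate 1, with medians of -0.61 and 0.10. Of 44 collagen genes 2 were apart and higher and 0 lower with all arrays, and 9 and 2 without ascending replicate 1, among them Col18a1, of endothelial basement membranes, at 4.26, 5.12 and 5.5 against 4.37, 4.60 and 4.63.

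**Figure D5:**
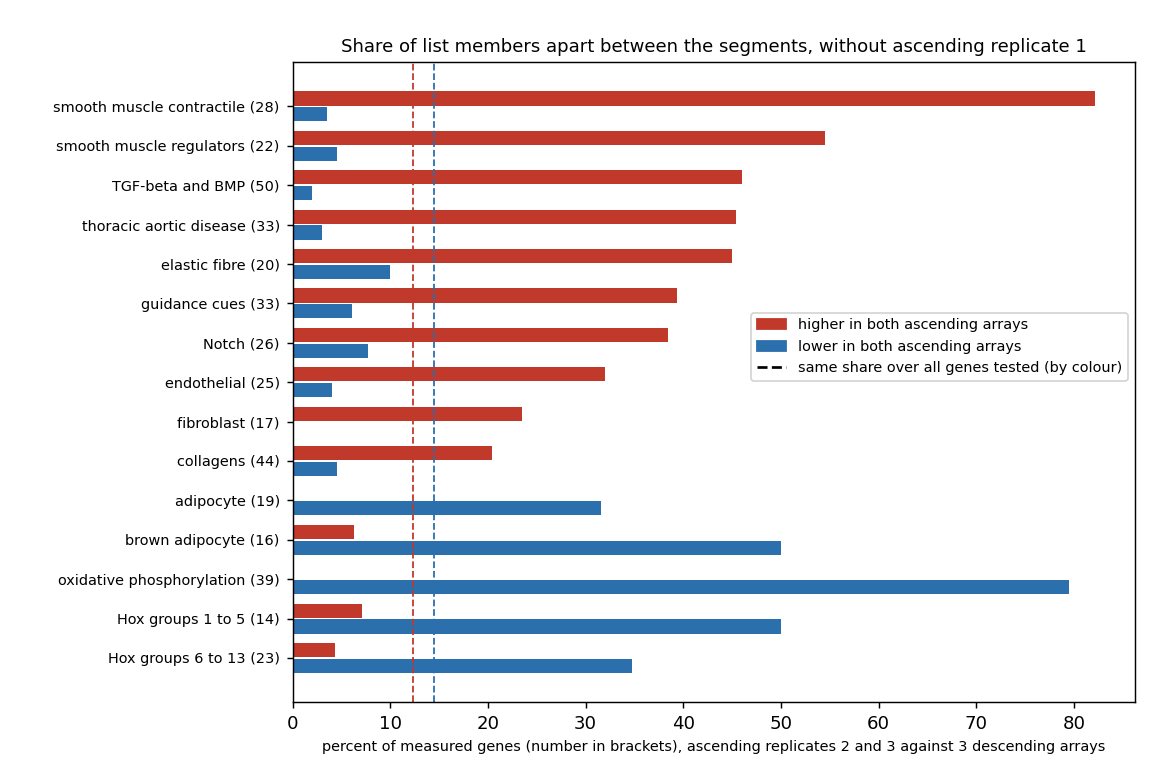
Percent of each list's measured genes (x axis) that were higher (red) or lower (blue) in both ascending replicates 2 and 3 than in all 3 descending arrays, with dashed lines at the shares over all genes tested, 12.3% and 14.5%. Contractile smooth muscle genes, at 23 of 28, and oxidative phosphorylation genes, at 31 of 39, lie farthest from those lines, in opposite directions.

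Genes of mitochondrial oxidative phosphorylation were lower in ascending aorta with and without replicate 1. Of 39 measured genes 31 were apart and lower and 0 higher in both sets of arrays, against 9.62% and 14.5% of all genes lower. Their means were 8.28, 9.35 and 9.33 in ascending and 9.54, 9.83 and 9.67 in descending aorta, so that replicate 1 was far below the rest and replicates 2 and 3 a little below the lowest descending array. The median difference was -0.67 with all arrays and -0.33 without ascending replicate 1. At an unadjusted limma p under 0.05, 33 and 7 genes were lower, against 6.27% and 3.67% of all genes. None of the 39 passed the adjusted threshold. The 4 complexes of the respiratory chain and ATP synthase shared this: the median without ascending replicate 1 was -0.34 for 17 genes of complex I, -0.35 for 4 of complex II, -0.34 for 6 of complex III, -0.25 for 5 of complex IV and -0.34 for 6 of ATP synthase. Ndufb3, a complex I subunit, was at 5.49, 6.70 and 7.16 against 7.39, 8.10 and 7.81 (-0.83 ± 0.25 without replicate 1, limma adjusted p = 0.59). Uqcrfs1, the Rieske iron-sulphur protein of complex III, was at 7.16, 8.06 and 8.01 against 8.44, 8.99 and 8.81.

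Some fat genes were lower too, none past limma's adjusted threshold. Ucp1, the uncoupling protein that marks brown fat, was at 10.60, 11.21 and 10.97 in ascending and at 11.29, 11.59 and 11.59 in descending aorta, high in all 6 arrays and lower in the ascending ones. Of 16 measured brown adipocyte genes 7 were apart and lower and 0 higher, and 8 and 1 without ascending replicate 1, with medians of -0.62 and -0.28, against 9.62% and 14.5% of all genes lower. At an unadjusted limma p under 0.05 there were 5 lower in both sets of arrays, against 6.27% and 3.67% of all genes. The list means were 5.85, 6.52 and 6.57 against 6.75, 6.92 and 7.25. Of 19 adipocyte genes 6 were apart and lower in both sets of arrays and 0 higher, with medians of -0.78 and -0.27. At an unadjusted limma p under 0.05, 7 and 0 of the 19 were lower, against the same 6.27% and 3.67% of all genes. The lipid droplet gene Plin4, the brown fat regulator Prdm16 and the thyroid hormone activating Dio2 differed in the other direction without ascending replicate 1, by 0.40, 0.47 and 0.45. Adiponectin (Adipoq) was at 7.62, 8.77 and 9.67 against 9.52, 9.67 and 9.33, with overlap. The part of fat around the vessel in the difference of the respiratory chain genes was not tested.

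The 3 genes that passed depended on the arrays kept. Leaving out ascending replicate 1 left Hoxc6 and Fbln7, leaving out ascending replicate 2 left Fbln7, leaving out descending replicate 3 left Hoxc6, and leaving out ascending replicate 3 or descending replicate 1 or 2 left 0. Over the 15 alternatives tried the differences ranged from -2.33 to -2.04 for Hoxc6, from -2.42 to -2.15 for Hoxc8 and from -2.26 to -1.82 for Fbln7. Several of these alternatives cannot change the differences. They are the fit of the aortic arrays alone, the replicate block, robust variances with a trend and dropping the genes with the lowest means. Averaging probe sets changes nothing either, as each of the 3 genes has 1. For Hoxc6, Hoxc8 and Fbln7 the limma adjusted p over all 15 ranged from 0.00392 to 0.0982, from 0.0177 to 0.234 and from 0.00352 to 0.409. Of the 15, 9, 6 and 9 were under 0.05.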

How the data were processed

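The authors deposited log2 values of 35556 probe sets for 12 arrays. RMA, which corrects background, normalizes and summarises probes, and Partek 6.6 are named, per the submitters' processing notes, without their roles; the normalization was otherwise not given in the sources used here, and scanner files were not used. Of the probe sets 21789 had 1 gene symbol in the platform annotation, 1621 had several and 12146 had none; the last 2 kinds were left out. The 19938 genes include 999 with more than 1 probe set. No filter on low values was applied.

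Each gene was fitted with vessel means by limma 3.58.1 (R 4.3.3), on all 12 arrays (8 residual degrees of freedom) and on 11 arrays without ascending aorta replicate 1 (7). P-values were adjusted by Benjamini-Hochberg over all genes, with a threshold of 0.05. The procedure was tested on simulated data with independent normal noise for each gene. No simulated array stood apart across many genes, so the fit with an array like ascending replicate 1 was not tested. The 47 gene lists, the members and the tests were chosen with earlier results of these data known. Genes named were those past the threshold, the 12 largest differences in each direction among named genes at an unadjusted p under 0.05 in both fits and without overlap, Hox genes, up to 8 members per list, and the 12 highest and 8 lowest genes of ascending replicate 1. Exceptions are said to be named after their values were seen, and so were Adipoq, Dio2, Myl9, Plin4, Prdm16, Tgfb1, Tgfb3 and Ucp1, which complete a group or illustrate it. Sequences are from RefSeq (GRCm38.p6). Plots used matplotlib 3.10.9 (Python 3.11.15).

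Alternatives were leaving out each aortic array, fitting the aortic arrays alone, a replicate block, a lymphoid covariate, array weights, dropping the 25% of genes with the lowest means, quantile normalization applied again, averaged probe sets, centring on medians, robust variances with a trend, an adjusted p under 0.01 and a 2-fold minimum.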

Additional observations from a re-analysis of the deposited data

How the results depend on the processing

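With all arrays 3 genes passed limma's threshold, and without ascending aorta replicate 1 there were 2. Leaving out 1 more aortic array gave from 0 to 2 genes in the former comparison and from 0 to 4 in the latter; the 4 came from a fit with 1 ascending array, assumed to vary like the other vessels. With only the arrays of the aortic segments fitted the counts were 0 and 41, and with a replicate block they were 0 and 0. The labels state no pairing, and the replicate numbers were not taken as one. Deviations of same-numbered arrays from their group means correlated at 0.06, 0.08 and 0.00. Ascending replicate 1 weighs heavily on the ascending means, so these correlations cannot decide whether the numbers pair the samples. With the lymphoid covariate the counts were 5 and 4, Ptprz1 higher in both, and without ascending replicate 1 array weights gave 10. At an adjusted p under 0.01 both were 0. Centring on medians, quantile normalization applied again, dropping the 25% of genes with the lowest means, averaged probe sets, robust variances with a trend and a 2-fold minimum moved neither count by more than 1.5 times. Centring on medians moved the median difference of all genes from -0.02 to -0.09. Of 122 genes named, 20 turned the direction of their difference with all arrays under some alternative, 9 of them without ascending replicate 1, and 10 turned under some alternative to the comparison without that array. With all arrays, leaving out 1 aortic array gave from -0.16 to 1.27 for Cnn1, from -0.37 to 0.79 for Bgn, from -0.43 to 0.45 for Dio2, from -1.66 to 0.62 for Efemp1, from -1.02 to 0.26 for Fbln1, from -1.01 to 0.94 for Fbln5 and from -0.18 to 0.15 for Foxn1. The range was from -0.07 to 4.36 for Glycam1, from -0.35 to 1.19 for Hey2, from -0.04 to 0.15 for Hoxb13, from -0.06 to 0.04 for Hoxb3, from -0.19 to 0.01 for Hoxb4, from -0.11 to 0.17 for Hoxc9 and from -0.08 to 1.39 for Hspb6. It was from -0.26 to 0.92 for Isl1, from -0.39 to 0.76 for Meis2, from -0.49 to 1.0 for Myl9, from -0.59 to 0.40 for Plin4, from -0.32 to 0.47 for Prdm16 and from -0.09 to 1.25 for Tagln. Array weights and the lymphoid covariate turned Dio2 to 0.36 and 0.28, Efemp1 to 0.22 and 0.16, Fbln1 to 0.03 and 0.04, Fbln5 to 0.61 and 0.60, Hoxb3 to 0.00 and 0.03, and Plin4 to 0.29 and 0.42. Array weights turned Foxn1 to 0.00, and the covariate turned Hoxb4 to 0.03. Centring on medians turned Bgn to -0.04, Hoxb13 to -0.01, Hoxc9 to -0.01, Myl9 to -0.04 and Prdm16 to -0.06, and quantile normalization turned Prdm16 to -0.08. In the comparison without ascending replicate 1, leaving out another array gave from -0.74 to 0.17 for Adipoq, from -0.26 to 0.07 for Eif2s3y, from -0.28 to 0.14 for Fbln2, from -0.13 to 0.23 for Foxn1, from -0.37 to 0.23 for Glycam1, from -1.02 to 0.32 for Hmcn1, from -0.03 to 0.06 for Hoxb3, from -0.03 to 0.04 for Hoxb4, from -0.13 to 0.43 for Hoxc9 and from -0.12 to 0.07 for Tgfb3. There the replicate block turned Fbln2 to 0.03 and Hmcn1 to 0.07, quantile normalization turned Eif2s3y to 0.01, and quantile normalization, centring and the covariate turned Hoxb3 to -0.03, -0.01 and -0.02 and Hoxb4 to -0.02, -0.01 and -0.03. The 3 arrays in a group limit what can pass, and probes near background limit the size of a difference, since detection was not known. The cause of these changes was not tested.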

Other observations

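Receptors and channels of vascular tone had members that were higher in ascending replicates 2 and 3. Of 47 measured ion channel genes 15 were apart and higher and 5 lower without ascending replicate 1, against 12.3% and 14.5% of all genes. With all arrays 5 were higher and 4 lower, against 6.09% and 9.62%. Kcnmb1, the beta subunit of the calcium-activated potassium channel of smooth muscle, was at 5.18, 7.16 and 7.47 in ascending and at 5.65, 5.99 and 6.00 in descending aorta. Kcnj15, an inwardly rectifying potassium channel, was higher in every ascending array, at 3.71, 4.46 and 4.61 against 3.60, 3.59 and 3.44 (0.72 ± 0.25, limma adjusted p = 0.425). Of 42 receptors and signals of tone 10 were apart and higher and 3 lower without ascending replicate 1, and 3 and 0 with all arrays. Npy1r, a receptor for neuropeptide Y, was at 3.72, 4.91 and 5.24 against 3.90, 3.04 and 3.73. Ptger3, a prostaglandin E2 receptor, was at 3.16, 4.11 and 5.64 against 5.92, 6.11 and 5.20, with overlap.

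Gene groups that can follow the time or stress of sampling were counted in the same way. Over all genes 6.09% were apart and higher and 9.62% lower with all arrays. Without ascending replicate 1 these shares were 12.3% and 14.5%. The clock and immediate early counts lay near or under them. Of 19 circadian clock genes 1 was apart and higher and 1 lower with all arrays, and 3 and 1 without ascending replicate 1. Nr4a2, an orphan nuclear receptor of the early response, was the 1 of 28 immediate early genes apart with all arrays, and 1 was higher and 1 lower without ascending replicate 1; Nr4a2 was at 4.28, 4.74 and 4.47 against 5.0, 5.25 and 5.49 (-0.75 ± 0.19, limma adjusted p = 0.391). Of 13 heat shock genes 0 were apart and higher and 2 lower with all arrays, and 3 and 2 without ascending replicate 1, and their means were 6.83, 7.86 and 7.95 against 7.68, 7.91 and 7.71, lowest in ascending replicate 1. Xist, the transcript of the inactive X chromosome, was at 8.84, 7.48 and 7.73 in ascending and at 7.21, 6.79 and 6.89 in descending aorta, higher in every ascending array. The difference was 1.05 ± 0.33, and 0.64 ± 0.27 without ascending replicate 1 (limma adjusted p = 0.425 and 0.705). The Y-linked Eif2s3y was between 1.41 and 2.08 in the 6 arrays.

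Over the 12 arrays of all vessels, the genes whose values were most like those of Hoxc6 were Cinp, Tac2 and Hoxc8 (Pearson's r = 0.939, 0.934 and 0.930). For Fbln7 they were C1qtnf3, Spata22 and Nlrp4f (r = 0.962, 0.932 and 0.932). The 3 arrays of a vessel share a tissue, and these values are a description of 12 points.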
